A study of Homo sapiens with 18 samples.

Results

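This account covers the 1458 windows of 1 kb that were accessible in both PEO1 and PEO4 and at least 4 times lower in A2780, CP70, PEA1 and PEA2, out of 86965 autosomal windows in the deposited ATAC-seq table. ATAC-seq reads open chromatin from where the transposase Tn5 can cut and tag the DNA. Its unit here is FPKM, the number of reads in a window after scaling for its length and for all reads of the library. A window was a member when the mean of the 3 PEO1 libraries and the mean of the 3 PEO4 libraries were both over 4 FPKM and both at least 4 times the highest of the 4 other line means. The members were therefore selected on the contrast of the PEO lines against the other lines, and that contrast is given below as a description without a test.

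All 6 lines are established and of human ovarian origin, were grown in the same medium with serum, and have 3 replicates each, so that 18 libraries were compared. PEO1 (platinum-sensitive) and PEO4 (resistant) came from the same patient with high-grade serous ovarian cancer, both after platinum-based chemotherapy. PEO1 was taken before clinical resistance and PEO4 after it. PEA1 (sensitive) and PEA2 (resistant) came from another patient with this cancer. PEA1 was taken before platinum chemotherapy and PEA2 after relapse with resistant disease. CP70 (resistant) was selected with cisplatin in culture from A2780 (sensitive), and both are labelled endometrial/ovarian. Each line is a single culture lineage, so what is shared by PEO1 and PEO4 cannot be told apart from what belongs to the patient they came from, and nothing in the labels says whether the replicate libraries came from separate cultures. All p-values below measure the spread between such libraries.

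Regulatory DNA is opened by transcription factors that bind promoters at gene starts and enhancers far from them. Promoters of genes that every cell uses are open in most cell types, whereas enhancers and the promoters of lineage genes are open in few. In epithelial cells of the female reproductive tract and in serous carcinoma, factors such as GRHL2, which holds epithelial junction genes active, WT1, ESR1 (the oestrogen receptor) and the AP-1 dimers of FOS and JUN proteins are known to act at such sites.

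The sequences below are shown because they lie in members with some of the largest ratios of PEO to other lines, or in members of ESR1 and CLDN4, genes described further on. They are stretches of GRCh37 (hg19), written 5′ to 3′ in lower case. Capitals mark matches on either strand to the AP-1 letters TGANTCA, the TEAD letters GGAATG or the GRHL letters AACCNGTT. For the first 4, the 200 bases of the window with the most matches were taken. For CLDN4, a tight junction protein, the 300 bases before the start of the canonical transcript were taken, which lie inside the member window.
LDB2 intron, chr4:16576022-16576221, plus strand: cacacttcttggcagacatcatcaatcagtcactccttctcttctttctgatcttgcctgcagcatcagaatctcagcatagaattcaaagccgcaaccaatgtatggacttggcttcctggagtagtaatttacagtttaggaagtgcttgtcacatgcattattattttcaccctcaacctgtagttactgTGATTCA
Intergenic, 1220 kb from the ACVR2A start, chr2:147382964-147383163, plus strand: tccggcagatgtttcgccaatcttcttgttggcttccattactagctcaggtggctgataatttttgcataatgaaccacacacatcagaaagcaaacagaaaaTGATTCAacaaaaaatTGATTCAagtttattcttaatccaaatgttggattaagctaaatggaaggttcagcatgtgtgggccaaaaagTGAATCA
DLG2 intron, chr11:84881313-84881512, plus strand: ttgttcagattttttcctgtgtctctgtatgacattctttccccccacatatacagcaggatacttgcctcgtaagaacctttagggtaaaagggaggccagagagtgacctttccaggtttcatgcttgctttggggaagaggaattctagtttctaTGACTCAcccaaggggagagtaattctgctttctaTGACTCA
ESR1 intron, chr6:152222155-152222354, plus strand: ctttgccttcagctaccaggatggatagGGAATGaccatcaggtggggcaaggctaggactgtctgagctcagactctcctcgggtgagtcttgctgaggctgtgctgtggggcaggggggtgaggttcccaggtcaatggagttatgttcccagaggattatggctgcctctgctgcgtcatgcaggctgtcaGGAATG
CLDN4 promoter, chr7:73245026-73245325, plus strand: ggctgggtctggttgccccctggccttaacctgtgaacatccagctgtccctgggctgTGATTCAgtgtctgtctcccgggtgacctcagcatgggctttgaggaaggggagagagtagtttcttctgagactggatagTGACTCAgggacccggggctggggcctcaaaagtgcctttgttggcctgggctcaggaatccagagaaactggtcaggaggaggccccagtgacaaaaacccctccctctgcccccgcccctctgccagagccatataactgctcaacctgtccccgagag
The intergenic stretch on chromosome 2 held 3 AP-1 matches, the DLG2 stretch 2, the LDB2 stretch 1 and the ESR1 stretch 2 TEAD matches. The CLDN4 promoter held 2 AP-1 matches. These stretches are a selection. Of other members with similar ratios, chr2:6131701-6132700 (32) and chr2:192847501-192848500 (30.5) held 0 AP-1 matches, and chr11:27030601-27031600 (31.6) held 1. The 300 bases before the starts of ESR1 and of KLK6 held 0 matches to any of these letters. A match is a description of the letters and not evidence of a bound factor.

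The median member measured 9.13 FPKM in PEO1 and 8.16 FPKM in PEO4. The medians in the other lines were 0.526 FPKM in A2780, 0.597 in CP70, 0.74 in PEA1 and 1.03 in PEA2. Library medians over the members lay within 9.03 to 9.31 FPKM in PEO1 and 8.02 to 8.3 FPKM in PEO4, so the replicates were close. The members took 1.78% ± 0.0458 (SD, n = 3) of all reads in PEO1 and 1.82% ± 0.101 in PEO4, against 0.151% ± 0.014 to 0.216% ± 0.0261 in the other lines. The median ratio of the lower PEO mean to the highest other mean was 5.41, with the 25th to 75th percentile from 4.46 to 8.38 and the largest at 37.8. It was under 5 in 583 members and at least 10 in 271. In every one of the 1458 members all 6 PEO libraries exceeded all 12 other libraries, which is true of 35.0% of all autosomal windows of the table, and the rule itself selected on this contrast.

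The libraries differed in more than these windows. Implied totals ranged from 8972042 reads in a PEO1 library to 60495462 in an A2780 library, and PEO1 was sequenced least. The median member nevertheless held 81 to 173 reads in the PEO libraries and 8 to 32 in the others, so the low values are the less precise ones. The share of reads that fell in the windows of the table was 39.9% ± 0.95 in PEO1 and 34.4% ± 1.55 in PEO4, against 9.24% ± 0.821 to 18.9% ± 1.85 in the other lines. The median autosomal window measured 2.83 FPKM in PEO1 and 2.24 in PEO4, against 0.683 to 1.79 FPKM elsewhere. When each library was divided by its own median, 189 windows met the rule, all of them members, and after quantile normalization 148 did, all of them members. Both rescalings kept 147 windows. After the same division, 163 windows met the mirrored rule for A2780 and CP70 and 30 that for PEA1 and PEA2, where 3 and 17 did on deposited values. When each line was first divided by its relative level in each 5 Mb bin, 166 windows met the rule, 102 of them members, and 47 members were kept under all 3 rescalings.

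The wording that these windows are open in the PEO lines only held for part of them. The highest of the other line means was over 4 FPKM in 183 members, between 2 and 4 in 240, between 1 and 2 in 424 and at most 1 FPKM in 611. The nearest other line was PEA2 in 629 members, PEA1 in 384, CP70 in 345 and A2780 in 100. Ranks within each line, which do not depend on the scale of a library, divided the members further. The median member stood at percentile 88.3 of the autosomal windows in both PEO1 and PEO4, and at percentile 38.9 in A2780, 38.7 in CP70, 32.5 in PEA1 and 26.5 in PEA2. Of the 1458, 731 ranked below the median in all 4 other lines, 383 ranked above percentile 75 of at least 1 other line, 116 of these in all 4, and 344 lay between. These groups were formed from the values after they were seen and are called low-rank, high-rank and middle-rank members here.

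**Figure D1:**
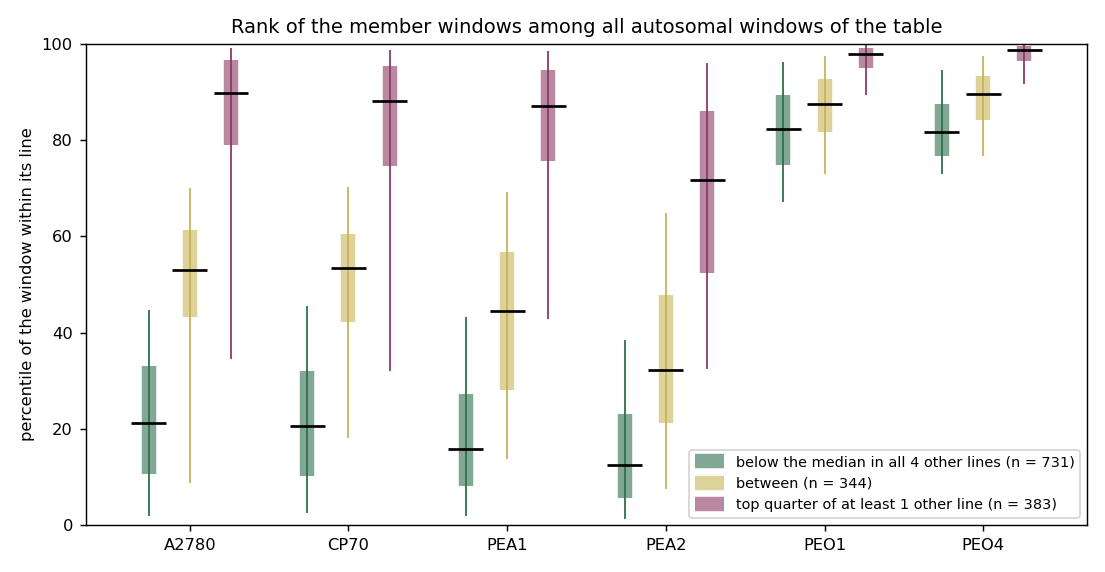
Percentile of the member windows among the 86965 autosomal windows of the table, by line (y axis, percentile) and rank group; thick bars span the 25th to 75th percentile of the members, thin lines the 5th to 95th, and black ticks are medians. The 731 low-rank members sit low in A2780, CP70, PEA1 and PEA2 and high in both PEO lines, whereas the 383 high-rank members sit higher in every one of these 4 lines.

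The members with the largest ratios were intron and intergenic windows that were nearly closed outside the PEO lines. LDB2 encodes a cofactor of LIM-domain proteins, and its intron window at chr4:16575301-16576300 had the largest ratio, 37.8. It measured 13.7, 12.8 and 11.5 FPKM in the PEO1 libraries and 15.2, 14.2 and 14.7 FPKM in the PEO4 libraries. The values were 0.227, 0.338 and 0.38 FPKM in A2780, 0.227, 0.359 and 0.419 in CP70, 0.417, 0.249 and 0.192 in PEA1 and 0.44, 0.231 and 0.133 in PEA2. The 12 libraries outside the PEO pair overlapped each other and held at most 23 reads each in this window.

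The window at chr11:84880801-84881800 lies in an intron of DLG2, a synaptic scaffold gene. It measured 12.1, 13 and 14.4 FPKM in PEO1, 9.01, 8.49 and 7.57 in PEO4, and 0.126 to 0.288 FPKM in the other 12 libraries. All 3 PEO1 libraries lay above the PEO4 libraries, with a log2 fold change of -0.65 (SE 0.118, adjusted p = 8.48e-06, limma). The intergenic window at chr2:147382201-147383200 measured 8.9, 6.63 and 7.47 FPKM in PEO1 and 13.3, 11.3 and 11.3 in PEO4, and 0.0312 to 0.359 FPKM in the other libraries. Here the order was turned, and all PEO4 libraries exceeded the PEO1 libraries (log2 fold change 0.64, SE 0.125, adjusted p = 2.8e-05, limma).

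The other members among the 10 with the largest ratios had ratios from 27.4 to 33. They lay in introns of TMEFF2, L3MBTL3 and DCC (a netrin receptor gene), between genes on chromosomes 2 and 8, and 15.4 kb from the start of FIBIN. All 10 were low-rank members and all 10 kept the rule under both library rescalings. An AP-1 match was present in 8 of the 10 windows, a TEAD match in 7 and a GRHL match in 1. Over all intron and intergenic windows the shares were 45%, 48.8% and 7.23%, and in low-rank members of these classes 61.4%, 58.3% and 12.7%.

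The 10 members with the highest accessibility were of another kind. Of these, 8 held the start of a canonical transcript, and their genes serve general cell functions or are widely used: EBAG9 (an oestrogen-responsive gene), P4HB (a protein disulphide isomerase of the secretory pathway), CENPX with LRRC45, FASN (fatty acid synthase), PCF11 (transcript termination), SF3B6 (splicing), OSBP (sterol transport) and ZNF706. The window over the EBAG9 start at chr8:110551501-110552500 was the highest. It measured 95, 95 and 100 FPKM in PEO1 and 84.3, 87.2 and 79.6 in PEO4. The other lines measured 9.83, 13.7 and 9.55 FPKM in A2780, 21.5, 15.7 and 12.3 in CP70, 19, 23 and 12.8 in PEA1 and 19, 12.6 and 16.4 in PEA2. It ranked at percentile 100 after rounding in every line, so the PEO lines stood out in height and not in rank.

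The P4HB start window at chr17:79818301-79819300 measured 60, 61.6 and 51.5 FPKM in PEO1 and 95.2, 102 and 82.5 in PEO4. The other 12 libraries lay between 4.4 and 13.8 FPKM, at percentiles from 95.4 to 99.9 by line. The FASN start window, on the same chromosome arm at chr17:80055901-80056900, followed the same order, with 49.4, 53.9 and 51.9 FPKM in PEO1 and 82.9, 93.7 and 72.4 in PEO4. In both windows PEO4 exceeded PEO1, by a log2 fold change of 0.69 (SE 0.0816, adjusted p = 2.48e-09, limma) for P4HB and 0.67 (SE 0.0819, adjusted p = 4.7e-09) for FASN. None of the 10 highest members kept the rule under both library rescalings.

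**Figure D2:**
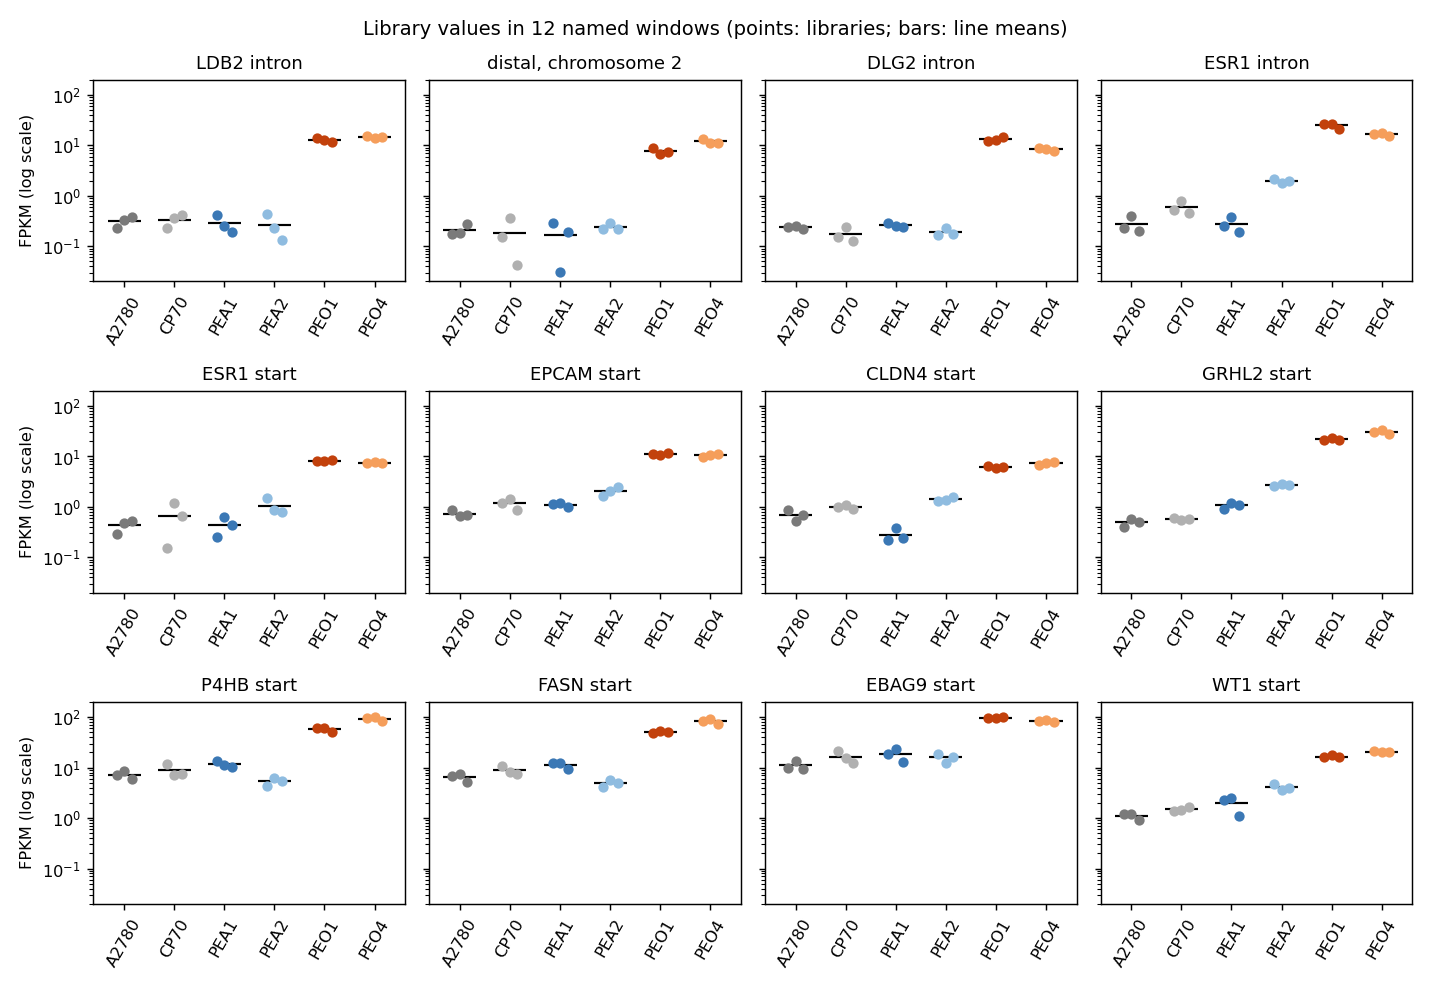
FPKM (log axis) in each of the 18 libraries for 12 named windows; points are the 3 libraries of a line and bars are line means. The windows in LDB2, on chromosome 2 and in DLG2 lie under 1 FPKM in all 12 libraries outside the PEO pair, whereas those over the starts of P4HB, FASN and EBAG9 lie over 4 FPKM there.

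By position, 651 members were intergenic (44.7%), 451 lay in introns (30.9%), 297 in promoters (20.4%, centre within 1 kb before to 100 bp after the start of a protein-coding transcript) and 59 in exons (4.05%). Over all autosomal windows the shares were 37.8%, 37.5%, 18.9% and 5.83%. Over the 20358 windows above 4 FPKM in both PEO lines they were 19.2%, 26.9%, 45.9% and 7.95%. The rank groups diverged from the average of the members. Promoters made up 2.19% of the low-rank members and 59% of the high-rank members, and CpG-rich windows 1.5% and 66.3%. The median distance to the nearest gene start was 129 kb in low-rank members and 0.438 kb in high-rank members, against 18.4 kb for all windows. The middle-rank members lay between in each of these measures, with 16% promoters and a median distance of 16.3 kb.

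Windows of the grid overlap by 100 bp, and members that touched were joined into 1171 regions. Of these, 898 held a single window, 260 held 2, 12 held 3 and 1 held 4. The longest lay over the start of GRHL2, a master factor of epithelial junction genes, at chr8:102503701-102507400, with mean values of 15.2 FPKM in PEO1 and 21.7 in PEO4 and a highest other line mean of 2.89 FPKM. Of the 12 regions of 3 windows, the 4 with the highest PEO1 level covered promoter and intron windows of MAL2 (an apical transport protein of epithelia), DOK7 (an adaptor of the muscle kinase MUSK) and TBX18 (a T-box factor), and an intergenic stretch near RNF19A. Their highest other line means lay between 3.32 and 4.52 FPKM.

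The members were unevenly placed along the genome. They made up 1.68% of autosomal windows but 3.76% of the windows of chromosome 17, 3.69% of chromosome 19, 3.15% of chromosome 8 and 2.9% of chromosome 4. Chromosome 13 had none of its 1222 windows among the members, and chromosomes 9, 20, 21 and 22 together had few, with 3, 6, 2 and 1. High-rank members made up most of those on chromosome 17 (87 of 145) and chromosome 19 (65 of 113). On chromosome 8, by contrast, 116 of 196 were low-rank members, and on chromosome 2 this held for 89 of 155.

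**Figure D3:**
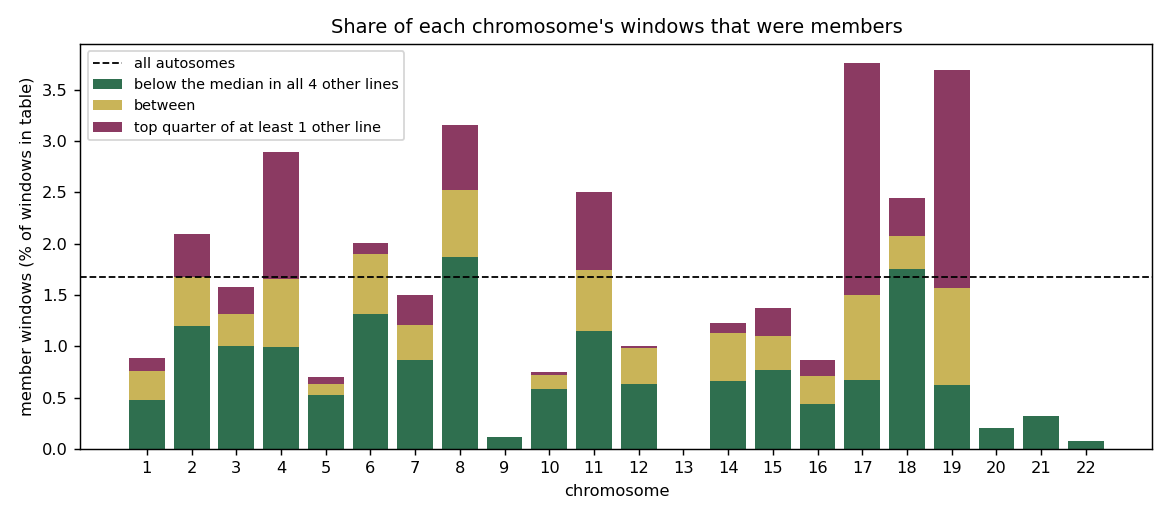
Member windows as a percentage of the windows of each autosome in the table (y axis), stacked by rank group; the dashed line is the share over all autosomes, 1.68%. Chromosomes 17 and 19 stand highest and are mostly high-rank members, chromosome 8 is mostly low-rank members, and chromosome 13 has none.

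Of 566 bins of 5 Mb, 336 held a member and the 10 fullest held 325 members (22.3%). The fullest was 10 to 15 Mb on chromosome 19, with 60 members among 434 windows, 42 of them high-rank and 36 in promoters. The median of all windows in that bin was 3.84 FPKM in PEO1 and 5.11 in PEO4, against 0.969 to 1.59 FPKM in the other lines. The lower PEO median was thus 2.41 times the highest other median there, while over the whole set of autosomes this ratio was 1.25. The next was 75 to 80 Mb on chromosome 17, with 58 members, 43 of them high-rank, and a ratio of 1.39, followed by 0 to 5 Mb on chromosome 4 with 34. Members lay in bins with a median ratio of 1.71, low-rank members 1.62 and high-rank members 1.8, against 1.1 for all autosomal windows. The level of the surrounding bin, which includes the members themselves, thus moved with membership. Of the 1458, 102 met the rule once that level was divided out. This division also takes out the scale of the whole library, and median division alone left 189. The regional part of the fall was therefore not separated from the library scale.

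The genes with the most members in the body or within 50 kb came from these same bins. HOOK2, a microtubule linker gene, GET3, which inserts tail-anchored membrane proteins, and BEST2, a chloride channel gene, shared the same 9 members on chromosome 19 between 6.99 and 23.8 FPKM in PEO1 and 13.1 and 29.3 FPKM in PEO4. NPLOC4, a cofactor of protein extraction by the VCP ATPase, had 9 on chromosome 17. ARHGDIA, ANAPC11 (a subunit of the anaphase-promoting complex), ALYREF (mRNA export), PCYT2 (phospholipid synthesis), MAFG (a small MAF factor) and NPB (a neuropeptide) each had 8 on chromosome 17, of which 6 were shared by all of these genes, among 10 in all. All 8 of ANAPC11 were high-rank members, with highest other line means of 2.72 to 11.9 FPKM.

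Gene lists for ovarian and epithelial biology were compared with the background that 7.63% of 19229 protein-coding autosomal genes had a member in the body or within 50 kb. Among epithelial identity genes, 9 of 40 (22.5%) had one: GRHL1, GRHL2 and OVOL1 (transcription factors), EPCAM, CLDN3 and CLDN4 (adhesion and tight junctions), JUP (plakoglobin, a desmosome protein), SPINT1 (a protease inhibitor) and LLGL2 (a polarity protein). For 8 of these a member lay over the start itself. Among mesenchymal genes 1 of 26 (3.85%) had a member, THY1. The lists of ovarian cancer surface and secreted markers had 8 of 20 autosomal genes, but KLK5, KLK6, KLK7, KLK8, KLK10 and KLK11 are neighbours that share 2 windows between them, and the others were MSLN and MUC16. Müllerian and serous lineage factors had 2 of 18 (WT1 and GATA6), steroid receptors, partners and targets 2 of 18 (ESR1 and GREB1), receptor tyrosine kinases 2 of 19 (ERBB2 and INSR), AP-1, YAP and TEAD genes 1 of 20 (JUNB) and homologous recombination and Fanconi genes 0 of 25. Of all members at the listed genes, only 2, both of ESR1, kept the rule under both library rescalings. No member at an epithelial identity gene, WT1, MSLN, MUC16 or a KLK gene did. These counts describe the lists, which were chosen with earlier results of these data known.

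The GRHL2 start is an example from the epithelial group, whose members all failed the rule under at least 1 of the 2 library rescalings. The window at chr8:102504601-102505600 measured 21.4, 23.6 and 21.5 FPKM in PEO1 and 30.2, 33.5 and 27.6 in PEO4. The other lines measured 0.401, 0.586 and 0.512 FPKM in A2780, 0.606, 0.539 and 0.586 in CP70, 0.929, 1.18 and 1.1 in PEA1 and 2.64, 2.83 and 2.75 in PEA2. The lines formed steps without overlap between PEA1, PEA2, PEO1 and PEO4, and A2780 and CP70 overlapped at the bottom. PEO4 was higher than PEO1 by a log2 fold change of 0.45 (SE 0.0942, adjusted p = 7.2e-05, limma) and PEA2 higher than PEA1 by 1.28 (SE 0.241, adjusted p = 3.91e-07). Both differences also passed after median division (0.79 and 0.77). In all, 5 members lay in or near GRHL2.

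At the start of EPCAM, a surface adhesion protein of epithelia, chr2:47595601-47596600, the values were 11.2, 10.7 and 11.9 FPKM in PEO1 and 9.71, 10.8 and 11 in PEO4. They were 1.65, 2.08 and 2.53 FPKM in PEA2, 1.12, 1.18 and 1.01 in PEA1, 1.21, 1.44 and 0.879 in CP70 and 0.872, 0.653 and 0.694 in A2780. The PEO lines overlapped each other (log2 fold change -0.10, SE 0.114, adjusted p = 0.435), whereas all PEA2 libraries exceeded all PEA1 libraries (0.84, SE 0.248, adjusted p = 0.00141, limma). With each library divided by its median, this PEA2 difference no longer passed (0.33, adjusted p = 0.166, limma).

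At the CLDN4 start, chr7:73244701-73245700, PEO1 measured 6.47, 5.85 and 6.13 FPKM and PEO4 6.8, 7.44 and 7.92. PEA1 was lowest with 0.224, 0.374 and 0.24 FPKM, and PEA2 measured 1.32, 1.39 and 1.55. The start of CLDN3, a neighbouring tight junction gene at chr7:73184401-73185400, had line means of 13.2 FPKM in PEO1 and 13.6 in PEO4 and at most 2.27 FPKM elsewhere. Here PEO4 and PEO1 overlapped and did not pass the test (0.05, adjusted p = 0.695, limma). After median division PEO4 was higher at both claudin starts, by 0.59 at CLDN4 (adjusted p = 8.77e-05, limma) and 0.39 at CLDN3 (adjusted p = 0.00129), so these calls depended on the scaling.

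The oestrogen receptor gene ESR1 had 5 members, all inside the gene, and 2 of them kept the rule under both library rescalings. The highest, an intron window at chr6:152221501-152222500, measured 26.9, 26.3 and 21.4 FPKM in PEO1 and 17, 17.5 and 15.4 in PEO4. It measured 2.2, 1.79 and 1.95 FPKM in PEA2 and 0.256, 0.374 and 0.192 in PEA1, and lay between 0.198 and 0.778 FPKM in the A2780 and CP70 libraries. PEO4 was lower than PEO1 (log2 fold change -0.57, SE 0.102, adjusted p = 6.54e-06, limma), and after median division this was -0.23 (adjusted p = 0.0386, limma). All PEA2 libraries lay above all PEA1 libraries, with no test given, since the window reached the filter of the PEA pair only through PEA2. The window over the ESR1 start, chr6:152127901-152128900, had means of 8.18 ± 0.184 FPKM in PEO1 and 7.53 ± 0.3 in PEO4 (SD, n = 3), which did not differ past the threshold (adjusted p = 0.398), and at most 1.05 FPKM in another line.

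The start of WT1, a transcription factor used as a marker of serous carcinoma, was a member close to the limit of the rule, with a ratio of 4.02. Its means were 16.5 ± 0.91 FPKM in PEO1, 20.6 ± 0.407 in PEO4 and 4.1 ± 0.634 in PEA2, and 1.1 to 1.97 FPKM in the other lines. The start of KLK6, a secreted serine protease gene, had means of 10.8 ± 1.37 FPKM in PEO1 and 11.5 ± 1.43 in PEO4, against 2.14 ± 0.204 in PEA2 and 0.591 to 0.867 FPKM in the others. Of the 22 members at epithelial identity genes, PEA2 was the highest other line in 12, and in 9 all PEA2 libraries exceeded all PEA1 libraries. This last order held in 383 of the 1458 members (26.3%) and in 41.5% of all autosomal windows.

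The starts of other marker genes were read in the same table. Of 11 markers of Müllerian and serous epithelium, 10 had a start window, and WT1 and EPCAM were members. PAX8, the defining Müllerian factor, measured 7.9 FPKM in PEO1 and 5.6 in PEO4 but also 3.37 in PEA1. By rank within the line it stood at percentile 86.9 in PEA1, above 85.2 in PEO1 and 80.7 in PEO4. MECOM, a factor gene often amplified in serous carcinoma, measured 7.12 FPKM in PEO1 but 1.52 in PEO4, below 2.64 in PEA1 and 2.7 in PEA2. WFDC2, which encodes the serum marker HE4, measured 6.71 FPKM in PEO1 and 14.5 in PEO4, against 4.77 and 5.65 in the PEA lines. Its percentiles were 81.1 in PEO1, 95.8 in PEO4, 94.5 in PEA1 and 96 in PEA2. CDH1, the epithelial cadherin, measured 3.03 and 4.09 FPKM in the PEO lines and 2.44 in PEA2, at percentiles 53.3, 72.6 and 68.6. KRT7 and KRT18 measured 4.25 to 8.14 FPKM in the PEO lines and at most 2.32 elsewhere. KRT8, a keratin of simple epithelia, measured 7.34 and 11.8 FPKM in the PEO lines and at most 2.57 elsewhere. These keratin starts also ranked highest in the PEO lines. SOX17 was low in the PEO lines, at 0.721 and 0.661 FPKM, against 0.896 to 2.33 FPKM elsewhere. Of the markers of fibroblasts, leukocytes and endothelium, the start windows of COL1A2 and CD14 were present, with 1.93 and 5.67 FPKM in PEO1 and 2.17 and 2.56 in PEO4. CD14 also measured 2.28 FPKM in PEA1 and 3.78 in PEA2, where its percentile was 87.6, beside 76.4 in PEO1. The other markers of these cells had no start window in the table and could not be read.

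The PEO4 to PEO1 comparison did not choose the members directly, but both lines had to reach 4 FPKM and 4 times the highest other line, which limits how far they can differ. It asks how far the shared windows differ between the sensitive and the resistant line. All 1458 members were tested with limma on log2(FPKM + 0.1) among 77654 windows. At an adjusted p under 0.05, 412 members were higher in PEO4 (28.3%, beside 21.9% of all windows tested) and 468 lower (32.1%, beside 45.8%). With the libraries divided by their medians, 762 members were higher, beside 36.8% of all windows, and 241 lower, beside 29.2%. The median of all windows moved from -0.30 to 0.09 with this division, so the direction of small differences depended on the scaling. At the study's thresholds, a log2 fold change over 2 and an adjusted p under 0.001, 1 member was higher (2.72% of all windows) and 2 were lower (5.78%). The median log2 fold change was -0.04 with the 25th to 75th percentile from -0.43 to 0.34, and 1343 members (92.1%) differed by less than 1 on the log2 scale. The rule itself favours so narrow a spread, which is therefore not a result about the members.

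On the deposited scale the low-rank members leaned lower in PEO4, as all windows tested did, and the high-rank members leaned higher. Among the 731 low-rank members 132 were higher and 311 lower in PEO4, with a median of -0.20. All windows tested also leaned lower, with 21.9% higher, 45.8% lower and a median of -0.30. Among the 383 high-rank members 192 were higher and 58 lower, with a median of 0.24. Windows of like rank outside the members were not counted beside them. Chromosomes 17 and 19 held 87 and 65 of these high-rank members, and all windows tested there leaned higher too. The chromosomes differed as a whole. On chromosome 17, 101 of 145 members were higher in PEO4 (69.7%, beside 50.2% of all its windows tested) and 14 lower (9.66%, beside 14.5%). On chromosome 19, 73 of 113 were higher (64.6%, beside 47.6%) and 2 lower (1.77%, beside 10.9%). On chromosome 7 the counts were 3 higher (3.80%, beside 11%) and 41 lower (51.9%, beside 60.8%) of 79. On chromosome 6 they were 8 higher (8.70%, beside 40.4%) and 43 lower (46.7%, beside 34.6%) of 92. When the median log2 fold change of each 5 Mb bin was removed before the test, 508 members were higher, beside 24.3% of all windows, and 278 lower, beside 25.7%.

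**Figure D4:**
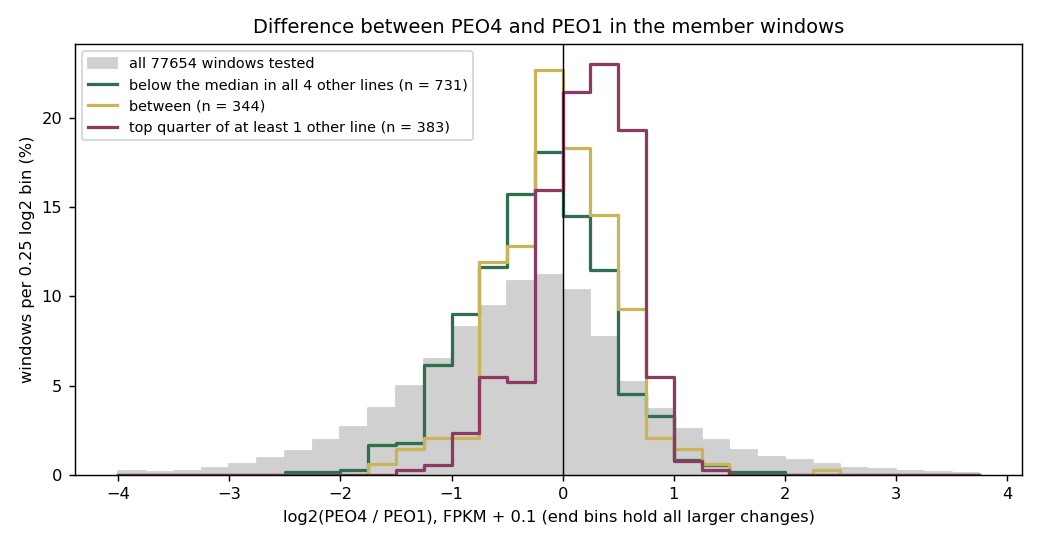
Distribution of log2(PEO4/PEO1) over all 77654 windows tested (grey) and in the 3 rank groups of the members (lines), as a percentage of windows per bin of the x axis. The members are narrower than all windows, which the rule itself favours. Low-rank members centre below 0 with a median of -0.20, beside -0.30 for all windows, and high-rank members centre above 0 with a median of 0.24.

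The largest rises and falls within the members were intergenic or intron windows. The window at chr8:133564501-133565500, 71.7 kb from the start of the potassium channel gene KCNQ3, rose most. It measured 7.08, 8.38 and 8.02 FPKM in PEO1 and 41.8, 39.2 and 40.7 in PEO4, and 0.296 to 1.54 FPKM in the other 12 libraries (log2 fold change 2.36, SE 0.101, adjusted p = 6.13e-21, limma). The next rises were near the peroxisome gene PEX2 (1.8, adjusted p = 3.29e-15) and in an intron of OXR1, an oxidation resistance gene (1.51, adjusted p = 3.63e-12), all 3 on chromosome 8.

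The window at chr15:53363701-53364700, 282 kb from the start of the liver and pancreas factor gene ONECUT1, fell most. It measured 21.3, 23.4 and 23.9 FPKM in PEO1 and 4.07, 4.08 and 3.89 in PEO4 (log2 fold change -2.48, SE 0.117, adjusted p = 1.2e-19, limma). Its PEO4 mean lay just inside the minimum of the rule. The other falls were -2.05 at chr10:59724001-59725000 (adjusted p = 5.14e-16) and -1.91 at chr8:138148201-138149200 (adjusted p = 3.31e-16). A nearby member, chr8:138151801-138152800, had means of 16.2 FPKM in PEO1 and 20.7 in PEO4 and was higher in PEO4 (0.35, adjusted p = 0.00211).

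In the other pairs most members were too low for the test, which required more than 1 FPKM on average in the pair, so the tested members are those with signal there and not a sample of all. Some passed only through the line where they were high, such as the ESR1 intron window in the PEA pair. The counts below are therefore a description and give no verdict on direction. In the PEA pair 648 members passed. Of these 135 were higher in PEA2 (20.8%, beside 43.0% of all windows tested) and 191 lower (29.5%, beside 21.4%). With median division 700 passed the filter, and 78 were higher and 421 lower, beside 29.6% and 42.8% of all windows. When all 1458 were tested without the filter, 347 were higher and 253 lower, beside 39.8% and 18.2% of all windows. In the A2780 pair 438 passed, 137 were higher in CP70 (31.3%, beside 47.5%) and 12 lower (2.74%, beside 2.29%). With median division 847 passed, and 29 were higher and 31 lower, beside 8.10% and 4.34% of all windows. With 5 Mb medians removed, 3 were higher and 16 lower, beside 1.73% and 3.29%. Without a filter 140 were higher and 52 lower, beside 17.7% and 3.17%, and without A2780 replicate 3 the counts were 31 and 5. Without A2780 replicate 2 they were 90 and 6 and without A2780 replicate 1 95 and 7, and the members lower in PEA2 fell from 191 to 127 without PEA1 replicate 1.

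The letters of 18 factor motifs were searched in every window on both strands. Among intron and intergenic windows, TGANTCA (AP-1, the site of FOS and JUN dimers) was present in 53.7% of 1102 members and in 45% of all 65466 windows of these classes. AACCNGTT (GRHL) was present in 11.2% and 7.23%, and GGAATG (TEAD, the partner of YAP) in 53.9% and 48.8%. In the 9394 windows of these classes above 4 FPKM in both PEO lines, the AP-1, GRHL and TEAD shares were 39.3%, 7.28% and 46.4%. In the low-rank members the shares were 61.4%, 12.7% and 58.3%. Windows that met the corresponding rule for PEO1 alone held AP-1 letters in 69.1%, those for PEO4 alone in 31.8% and those for PEA2 alone in 53.9%. In the same order the TEAD shares were 54%, 48.5% and 52.6%, and the GRHL shares 9.81%, 7.13% and 5.79%. AP-1 and GRHL letters occurred together in 6.08% of members and 3.48% of all windows of these classes.

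Base composition moved with these shares. The median GC content was 43.9% in low-rank members, 62.3% in high-rank members and 50.5% in all windows. Within intron and intergenic windows of 40% to 50% GC, AP-1 letters were present in 60% of 490 members and 53.9% of all windows, and GRHL letters in 12.7% and 8.55%. At 50% to 60% GC the shares were 44.8% and 37.2% for AP-1 and 12.1% and 6.13% for GRHL. At 30% to 40% GC they were 74.9% and 61.7% for AP-1 and 10.9% and 9.3% for GRHL. Among the other families, the letters GCCNNNGGC of TFAP2 factors were in 38.2% of members and 34% of all windows of these classes. The letters AGATAA, read by GATA factors, were in 38.3% and 38.6%. The letters TGTTTAC of the forkhead factors were in 12.2% and 12.7%. The letters GCGTGAC of PAX2, PAX5 and PAX8 were in 4.08% and 3.72%, and the letters GGGCGG of SP factors in 31.7% and 34.7%. The oestrogen response element and the paired NFI site were rare, with 4 and 3 members that held them (0.363% and 0.272%, beside 0.153% and 0.141%). The background mattered for several families. In the 9394 intron and intergenic windows above 4 FPKM in both PEO lines, the shares were 50.4% for TFAP2 and 29.4% for GATA. They were 11% for forkhead, 6.01% for PAX and 61.1% for SP letters. Rank mattered too, and in low-rank members of these classes the shares were 47.3% for GATA and 27.3% for TFAP2. The letters TTGCNNAA of CEBP factors were in 45.9% of low-rank members, 40.7% of members and 38.6% of all windows of these classes.

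**Figure D5:**
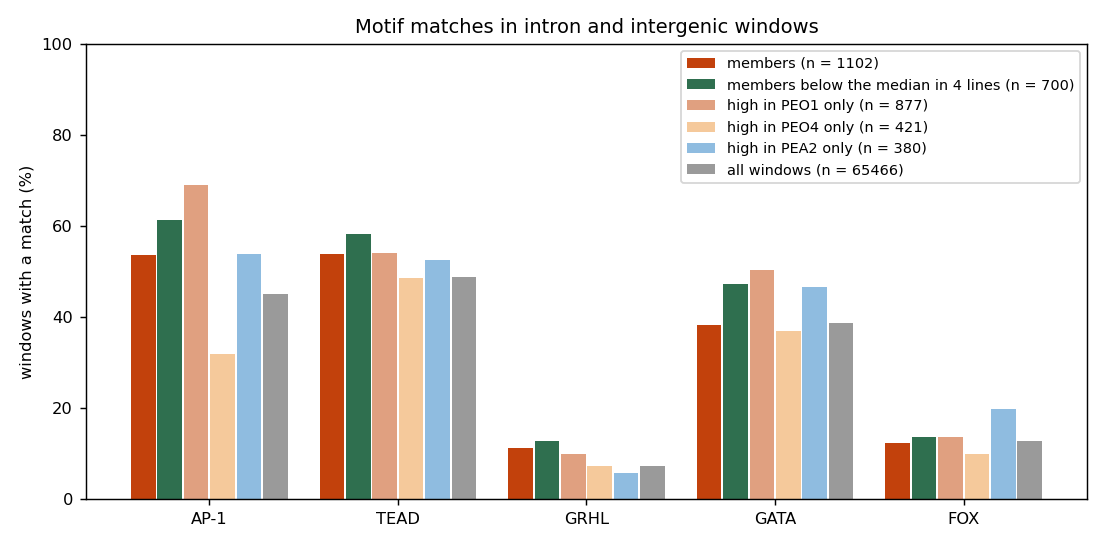
Share of intron and intergenic windows with at least 1 match to the AP-1, TEAD, GRHL, GATA or FOX letters (y axis, percent) in the members, in low-rank members, in windows high in PEO1, PEO4 or PEA2 alone, and in all windows. AP-1 letters were in 53.7% of members, between 31.8% for windows high in PEO4 alone and 69.1% for those high in PEO1 alone.

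The PEO4 to PEO1 difference moved with the AP-1 letters in all windows of these classes as well as in the members. Of 592 intron and intergenic members with AP-1 letters, 88 were higher in PEO4 (14.9%, beside 14.8% of all such windows tested) and 271 lower (45.8%, beside 61.5%), with a median log2 fold change of -0.23. Of 510 without them, 158 were higher (31%, beside 26.4%) and 136 lower (26.7%, beside 40%), with a median of 0.00. Among all windows of these classes that were tested, the medians were -0.71 with and -0.19 without AP-1 letters. That gap is wider than in the members, so the order is not particular to them. Of 123 with GRHL letters, 18 were higher (14.6%, beside 18%) and 46 lower (37.4%, beside 52.6%). Of 979 without them, 228 were higher (23.3%, beside 21.3%) and 361 lower (36.9%, beside 49.6%).

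The rule was also read in replicates it had not used. With replicate 1 of every line left out, 1764 windows met the rule on the remaining libraries and 53.6% of them met it in the left-out libraries alone. The shares were 76.5% of 1335 windows without replicate 2 and 76.7% of 1387 without replicate 3. When the lowest PEO library was set against the highest of the 12 other libraries, 663 windows met the rule. The members nearest the limits were chr17:44841601-44842600 with a PEO4 mean of 4 FPKM and chr1:1003501-1004500 with a ratio of 4, and the nearest outside were chr1:86037301-86038300 with 3.997 FPKM and chr11:66138301-66139300 with a ratio of 3.999.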

How the data were processed

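ATAC-seq was measured in 18 libraries of 6 lines, 3 per line, with groups and replicate numbers from the sample labels. The authors aligned reads to hg19 (Bowtie2), removed duplicates (Picard), counted them in 1 kb windows with featureCounts and deposited FPKM values, which over windows of equal length equal RPM, reads scaled by the library total. Versions, and any shift of read ends for Tn5, are not given in the sources used here. The table holds 89428 windows of 1000 bp on a grid of 900 bp, which is only a part of the genome. The paper's methods describe a filter of windows by depth. Shares, percentiles and rankings here refer to the windows of the table and not to the genome. Divided by the step between its lowest values, each library gave whole reads (100% of values within 1e-06 of a read), so reads and library totals were recovered. Intervals and read limits drawn from them cover counting error only. Replicate libraries differed over the members by a chi-square per window of 1.11 to 2.06, where sampling noise alone gives about 1, and all were kept.

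Lines of a pair were compared with limma 3.58.1 in R 4.3.3 (lmFit, eBayes with a mean-variance trend) on log2(FPKM + 0.1), over windows with a mean above 1 FPKM, with Benjamini-Hochberg adjustment over all windows tested. These fold changes understate changes of low windows. The study's methods weighted counts with voom, and the deposited values were tested without weights. edgeR 4.0.16 on recovered reads, which called 16915 windows higher and 36241 lower in PEO4, a pseudocount of 0.5, no filter, median centring, removal of 5 Mb medians, a replicate block and leaving out each library were alternatives. The test was checked on simulated data. Windows were annotated by their centre with GENCODE release 44 on GRCh37, and sequences were read from GRCh37. CpG-rich means over 50% GC and an observed to expected CpG ratio over 0.6. Same-numbered libraries of a pair deviated together weakly or in opposite directions (correlations -0.412 to 0.045), so the numbers were not treated as pairs.

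Windows were named by rule: the 10 members highest in the PEO lines, the 10 with the largest ratio, the 10 genes with most members, 5 regions by number of windows and then PEO1 level, the 3 largest rises and falls, the members nearest the limits and those at listed genes. The members and lists were chosen with earlier results of these data known.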

Additional observations from a re-analysis of the deposited data

Results flagged for a closer look

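The change from PEO1 to PEO4 minus the change from PEA1 to PEA2 was fitted with limma over the 12 libraries of both pairs, in 81671 windows. It is given here as a description for the 6 members with the largest PEO changes. They were chosen for that change, so the difference is not independent of the choice. All but the window at chr8:133564501-133565500 reached the filter only through the PEO libraries. No test of the difference is therefore given. The difference was 2.72 on the log2 scale (SE 0.242) at chr8:133564501-133565500, where PEA1 and PEA2 did not differ past the threshold (-0.36, adjusted p = 0.215, limma). It was 2.16 near PEX2 and 1.77 in the OXR1 intron. Among the falls it was -3.56 near ONECUT1 (SE 0.299), -3.11 at chr10:59724001-59725000 and -1.40 at chr8:138148201-138149200. PEA values in these windows were low, between 0.286 and 1.46 FPKM on average, so the PEA changes rest on few reads.

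Chromosome X, which the rule left out, also held such windows. Of 2460 windows there, 43 met the same limits (1.75%, beside 1.68% of autosomal windows).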

How the results depend on the processing

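The number of windows meeting the rule depended on scaling. It was 189 with median centring, 148 with quantile normalization and 166 after division by the 5 Mb level, against 1458. It was 3300 at a fold of 3, 403 at a fold of 8, 2831 at a minimum of 2 FPKM and 663 by single libraries, and 1335 to 1764 with a replicate of every line left out.

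With median centring the members called were 762 higher and 241 lower in PEO4, 78 higher and 421 lower in PEA2, and 29 higher and 31 lower in CP70. At the study's thresholds they were 2 higher and 1 lower in PEO4. With 5 Mb medians removed, 278 were lower in PEO4 and 3 higher in CP70, and the study's thresholds gave 3 higher and 1 lower in PEO4. Without a filter 347 were higher in PEA2 and 52 lower in CP70. Median centring reversed no call of a named window, but ended 6 calls for PEO4, 3 for PEA2 and 9 for CP70, and added 14 for PEO4 and 10 for PEA2. A pseudocount of 0.5 left 1 member lower in PEO4 at the study's thresholds.

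Leaving out 1 library gave 348 to 419 higher and 418 to 467 lower in PEO4, 98 to 141 higher and 127 to 257 lower in PEA2, 31 to 131 higher and 5 to 12 lower in CP70, and, at the study's thresholds, 1 higher and 1 to 2 lower in PEO4. With the replicate block the counts were 456 and 492 in the PEO pair, 128 and 169 in the PEA pair and 104 and 11 in the A2780 pair, all within 1.5 times the counts without it. The edgeR counts, 404 and 471, 132 and 202, and 146 and 11, were within 1.5 times too. The cause of these shifts was not tested. Low read numbers in CP70 and PEA2, where 27 and 18 members held at most 3 reads in each library, limit comparisons there.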
